A study of Mus musculus with 8 samples.

Results

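Activator protein 1 (AP-1) is a family of basic leucine zipper transcription factors that bind DNA as dimers of Fos and Jun proteins. Many of its genes are immediate early genes, transcribed within minutes of T cell receptor stimulation or cell stress without new protein synthesis. In T cells AP-1 dimers act with NFAT and IRF factors on cytokine and effector genes. Here 10 genes were followed: the Fos subunits Fos, Fosb and Fosl2; the Jun subunits Jun, Junb and Jund; the related leucine zipper factors Atf3, Maff and Batf; and Ier2, an immediate early regulator that is not a leucine zipper protein. They were taken by symbol, and all 10 were present among the 32285 features counted.

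The cells were sorted T cells (CD45+ CD3+ TCR-beta+) from the pancreas of NOD mice, which become diabetic through spontaneous autoimmunity. The labels describe the mice as diabetic females aged 3 to 4 months, with new-onset disease, and their treatment protocol gives an upper age of 5 months. Mice were dosed daily, from a blood glucose of 200 to 300 mg/dl, with nutlin-3 (an MDM2 inhibitor, 50 mg/kg) plus MK-1775 (a Wee1 inhibitor, 25 mg/kg), a combination labelled PPCA, or with a vehicle of 65% PEG300, 30% ethanol and 5% Tween 20. Doses were given on days 1 to 3 and tissue was taken on the day after the last, and whether the day in a library's name is the day of collection or the number of doses is not stated in the labels. There was 1 library per treatment from each of days 2, 3 and 4, and 1 library each from untreated mice at onset (glucose 250 mg/dl) and with active disease (above 600 mg/dl), both collected on day 1. The 8 libraries had no replicate of a treatment and day, and the number of mice in each was not given, so each p-value below measures the spread between libraries.

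Members were read in T cells, defined by at least 2 unique molecular identifiers (UMIs, counted RNA molecules) over 6 T cell receptor complex genes. CD4-gated cells had at least 1 Cd4 UMI and none of Cd8a or Cd8b1, and CD8-gated cells the reverse. Of 80470 barcodes, 27302 cells passed the CD4 gate and 22030 the CD8 gate, and 21.75% to 35.25% of the T cells of a library passed neither. Each library gave 2629 to 4715 CD4-gated cells, with 12437401 to 24667316 UMIs, and 1619 to 4426 CD8-gated cells, with 10032132 to 22223530 UMIs. Levels are given as CPM: a gene's summed UMIs in the gated cells of a library, per 1000000 UMIs summed there over all genes. The summed T cell genes stood at 5218 to 7330 CPM in every library of both gates. The libraries differed in sex-linked transcripts: Xist was read in the active, onset, PPCA day 2 and vehicle day 4 libraries, and Y-linked genes in vehicle day 2 and day 3 and PPCA day 3 and day 4, which goes against the female label. Pairs of libraries shared 14 to 41 cell barcodes, at most 0.431% of a library.

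Promoter sequences are shown for Fos, Jun, Junb and Maff, members whose day 4 levels lay above those of days 2 and 3 in both gates. RefSeq windows of GRCm38.p6, from 250 bases before to 50 after an annotated start, were matched for 9 of the 10 members, in 11 windows. Motifs were chosen after the sequences were seen and searched on both strands: the cAMP response element TGACNTCA, the shorter form TGACG (which lies within TGACGTCA), the AP-1 site TGANTCA and the CArG box bound by serum response factor. Capitals mark the matches. The Fos window is chr12:85473640-85473939 on the plus strand, the Jun window chr4:95052173-95052472 on the minus strand, the Junb window chr8:84978699-84978998 on the minus strand, and the second of 3 Maff windows chr15:79347270-79347569 on the plus strand.
Fos: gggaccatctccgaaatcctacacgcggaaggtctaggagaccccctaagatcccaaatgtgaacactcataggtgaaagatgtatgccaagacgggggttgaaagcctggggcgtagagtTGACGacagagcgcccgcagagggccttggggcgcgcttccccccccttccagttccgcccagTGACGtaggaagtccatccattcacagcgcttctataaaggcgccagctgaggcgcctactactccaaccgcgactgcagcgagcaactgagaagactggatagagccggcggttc
Jun: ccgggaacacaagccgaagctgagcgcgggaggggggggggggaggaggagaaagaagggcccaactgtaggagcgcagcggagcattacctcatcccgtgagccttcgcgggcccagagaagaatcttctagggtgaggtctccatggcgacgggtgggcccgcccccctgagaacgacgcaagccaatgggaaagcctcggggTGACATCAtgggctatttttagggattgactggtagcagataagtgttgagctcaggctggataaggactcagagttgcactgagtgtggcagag
Junb: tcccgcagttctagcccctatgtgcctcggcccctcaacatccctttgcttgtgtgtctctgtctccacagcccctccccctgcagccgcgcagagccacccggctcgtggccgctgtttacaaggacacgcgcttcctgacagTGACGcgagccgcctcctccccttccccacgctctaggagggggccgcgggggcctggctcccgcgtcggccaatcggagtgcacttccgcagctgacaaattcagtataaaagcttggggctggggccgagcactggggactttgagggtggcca
Maff: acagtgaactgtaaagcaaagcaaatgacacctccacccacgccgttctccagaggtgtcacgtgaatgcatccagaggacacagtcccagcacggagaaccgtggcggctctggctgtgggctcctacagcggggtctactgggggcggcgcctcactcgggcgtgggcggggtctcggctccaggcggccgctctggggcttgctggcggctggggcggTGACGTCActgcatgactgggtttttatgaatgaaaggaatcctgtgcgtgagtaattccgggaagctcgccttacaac

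The element TGACNTCA was present in 8.84% of all 32817 windows and, among the members, in the Jun window (first base at -45 from the start) and in 2 Maff windows (-29 and -45). The form TGACG was present in 20.8% of windows, and the members that held it were Fos (-129 and -66), Fosb (-60), Junb (-106), Atf3 (-7), Batf (-98) and Maff. Neither TGANTCA, in 7.81% of windows, nor the CArG box, in 1.63%, was matched in any member window. A match describes the letters of a window only, and sequence farther than 250 bases before a start was not searched.

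The AP-1 genes together stood highest on day 4, in both treatments and both gates. Here a gene that rose was one with a higher level in the day 4 libraries. Harvest day cannot be told apart from anything else the libraries of a day shared, such as tissue handling, which was not tested. The summed level of the 10 members was 5670 to 9763 CPM in the day 4 CD4 cells, against 1468 to 3327 CPM on days 2 and 3, and 4436 to 6873 against 1020 to 2091 CPM in CD8 cells. In edgeR's quasi-likelihood test of day 4 against the mean of days 2 and 3, with treatment as a factor and Benjamini-Hochberg adjustment over all genes, 7 of 10 members rose in CD4 cells and 9 of 10 in CD8 cells, and none fell. Of all 11937 genes tested in CD4 cells 13.9% were called (8.39% higher and 5.49% lower), and of 11959 in CD8 cells 16.2% (9.16% higher and 7.07% lower). The median log2 difference was 1.68 over the members against -0.01 over all genes in CD4 cells, and 2.17 against -0.02 in CD8 cells. Scaled by UMI totals in place of the trimmed mean of M values (TMM), the same members were called, while the genes called changed from 1002 higher and 655 lower to 630 and 1311 in CD4 cells, and from 1095 and 845 to 701 and 1799 in CD8 cells. That scaling moved the median of all genes to -0.17 and -0.18.

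**Figure D1:**
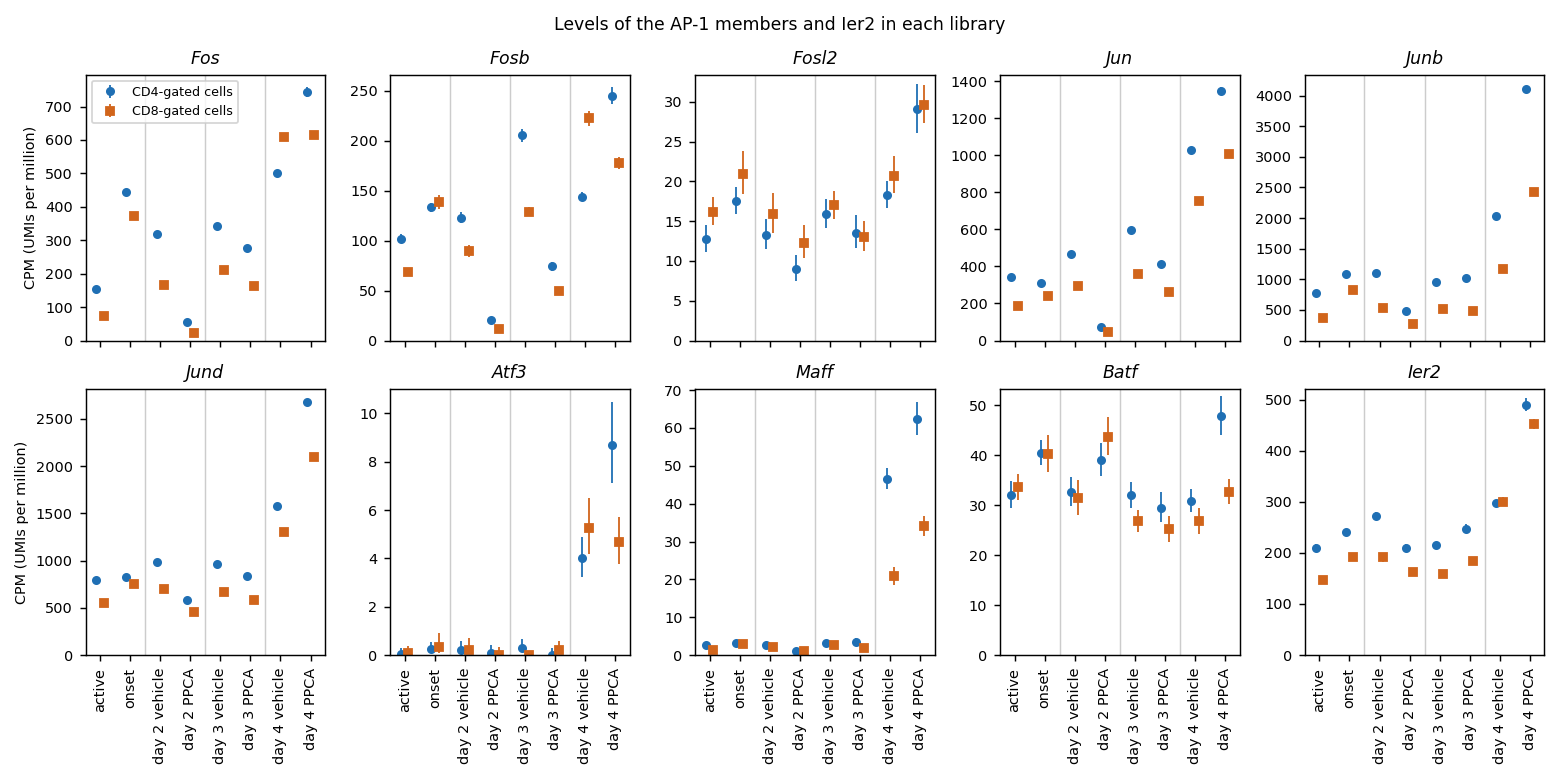
Level of each AP-1 member and Ier2 (CPM, linear axis from 0) in the CD4-gated (circles) and CD8-gated cells (squares) of the 8 libraries, 1 point per library with its 95% Poisson interval, which covers counting error only. The day 4 libraries are the highest for most members, and Maff reaches 46.6 and 62.4 CPM in CD4 cells there against at most 3.37 CPM in the other 6.

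Maff, a small Maf protein that lacks a transactivation domain, had the clearest separation. In CD4 cells it stood at 2.55 CPM in active, 3.12 in onset, 2.63 in vehicle and 1.08 in PPCA on day 2, 3.08 and 3.37 on day 3, and 46.6 and 62.4 on day 4. Both day 4 libraries lay far above the other 6, and the log2 difference was 4.62 (SE 0.25, adjusted p = 0.00020). In CD8 cells the 6 other libraries held 0.946 to 2.92 CPM, and vehicle and PPCA on day 4 held 20.8 and 34.0 CPM, a log2 difference of 4.00 (SE 0.31, adjusted p = 0.00055). Leaving out each of the 6 treated libraries in turn left the call in place in both gates, with log2 differences of 4.19 to 5.09 in CD4 cells and 3.23 to 4.81 in CD8 cells.

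Atf3, a stress-induced factor that represses many of its targets, was close to absent on days 2 and 3. CD4 cells held 205 Atf3 UMIs on day 4 and 10 on days 2 and 3, a ratio of 34.2 in CPM (95% Poisson interval 18.2 to 72.4), and CD8 cells held 175 and 5, a ratio of 57.8 (24.3 to 180.2). The intervals cover counting error only. By library its CD4 level was 0.193 and 0.0718 CPM in vehicle and PPCA on day 2, 0.313 and 0 on day 3 (where a count of 0 allows up to 0.296 CPM at 95%), and 4.01 and 8.68 on day 4. The groups did not overlap in either gate. Atf3 passed the low-count filter only through its day 4 libraries, so its place in the day 4 counts and medians above and below adds no support. Without it 6 of 9 members were called in CD4 and 8 of 9 in CD8 cells.

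The Jun subunits rose in both gates. Junb, the partner of Batf in helper T cell programmes, stood in CD4 cells at 774 CPM in active, 1079.6 in onset, 1105 and 486 in vehicle and PPCA on day 2, 957 and 1017 on day 3, and 2025 and 4112 on day 4. Its day 4 level exceeded that of every other library, and the log2 difference was 1.97 (SE 0.36, adjusted p = 0.013), with 2.20 (SE 0.35, adjusted p = 0.0071) in CD8 cells. Jun, the archetypal partner of Fos, went from 469 and 70.5 CPM on day 2 and 597 and 415 on day 3 to 1028 and 1349 on day 4 in CD4 cells. Its log2 difference was 2.14 (SE 0.50, adjusted p = 0.032) in CD4 and 2.39 (SE 0.51, adjusted p = 0.021) in CD8 cells. Jund, a broadly expressed Jun protein, rose by 1.52 (SE 0.26, adjusted p = 0.011) and 1.67 (SE 0.23, adjusted p = 0.0048).

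Among the Fos subunits the 2 gates gave different calls. In CD8 cells Fos stood at 166 and 21.7 CPM in vehicle and PPCA on day 2, 211 and 163 on day 3, and 609.7 and 614 on day 4, and rose by a log2 difference of 2.62 (SE 0.48, adjusted p = 0.013). The CD4 levels were 319 and 54.3, 342 and 277, then 501 and 744 CPM, a log2 difference of 1.76 (SE 0.51) that missed the threshold (adjusted p = 0.058), although day 4 lay above both earlier days. It was called in 6 of 17 alternatives, among them without day 2 (1.04, edgeR adjusted p = 0.0071), without PPCA day 2 (1.11, adjusted p = 0.0058), without vehicle day 2 (2.41, adjusted p = 7.0e-05) and with no filter on low counts (1.76, adjusted p = 3.3e-10). Without PPCA day 4 it stood at 0.65 (adjusted p = 0.46). With no filter on low counts the Fos value hardly moved while its SE fell from 0.51 to 0.21, so that call is not a larger difference. Fosb, a paralogue of Fos and likewise an immediate early gene, gave 1.60 (SE 0.58, edgeR adjusted p = 0.107) in CD4 cells. There vehicle on day 3 (206 CPM) exceeded vehicle on day 4 (144 CPM). In CD8 cells Fosb rose by 2.15 (SE 0.41, adjusted p = 0.015). Fosl2, which encodes Fra-2, rose by 1.03 (SE 0.24, adjusted p = 0.030) in CD4 and 0.97 (SE 0.21, adjusted p = 0.022) in CD8 cells. Without day 2 Fosl2 lost both calls, at 0.69 (edgeR adjusted p = 0.068) and 0.78 (adjusted p = 0.084). Ier2 rose by 0.88 (SE 0.19, adjusted p = 0.027) and 1.26 (SE 0.16, adjusted p = 0.0035).

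Batf, which pairs with Jun proteins and IRF4 in effector T cells, did not follow the other members. Its CD4 level was 32.6 and 39.0 CPM on day 2, 32.0 and 29.5 on day 3, and 30.8 and 47.8 on day 4, with vehicle on day 4 inside the range of the earlier days. The log2 difference was 0.37 in CD4 (adjusted p = 0.18) and 0.08 in CD8 cells (adjusted p = 0.73). Counted without a test, day 4 lay above all 4 earlier treated libraries for 8 members in CD4 cells (all but Fosb and Batf). It did so for 9 in CD8 cells, and for 10.4% and 9.33% of all genes. Both counts include Atf3, which adds no support, having passed the filter only through day 4.

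Part of these calls changed when single libraries were left out. Each fit without a library or day had fewer residual degrees of freedom, so a call could be lost there without a smaller difference. The counts of members include Atf3. Without PPCA day 4, 3 members were called in CD4 cells, where Fosl2 (0.46), Jun (1.00), Junb (1.08) and Ier2 (0.42) lost theirs, and 7 in CD8 cells, where Fosl2 (0.44) and Jun (1.24) did. Genes called fell as well, to 605 and 787 from 1657 and 1940. Members that kept the call there also had smaller log2 differences, with Jund at 0.82 in CD4 and 1.04 in CD8 cells, and Junb at 1.25, Fos at 1.72 and Fosb at 1.14 in CD8 cells. Without PPCA day 3 the counts of members were 2 and 6, while the CD4 log2 differences of Jun (2.34), Junb (1.97) and Jund (1.41) stayed near their values in all libraries, and 530 and 559 genes were called. Without vehicle day 3 there were 5 and 6 members among 854 and 705 genes, with the lost members at nearly the same log2 differences: Jun (2.09) and Ier2 (0.89) in CD4 cells, and Fos (2.53), Fosb (2.16) and Jun (2.34) in CD8 cells. Without vehicle day 4 there were 10 and 9 among 1524 and 2342. Leaving out day 3 as a whole gave 2 and 6 members among 503 and 541 genes, although the CD4 differences of Jun (2.95), Junb (2.24), Jund (1.71) and Fosl2 (1.32) were larger there. With the sex-linked class of the library as a factor, 9 members were called in each gate, Fos (2.14) and Fosb (1.84) among them in CD4 cells, and so were 2520 genes in CD4 and 3170 in CD8 cells.

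**Figure D2:**
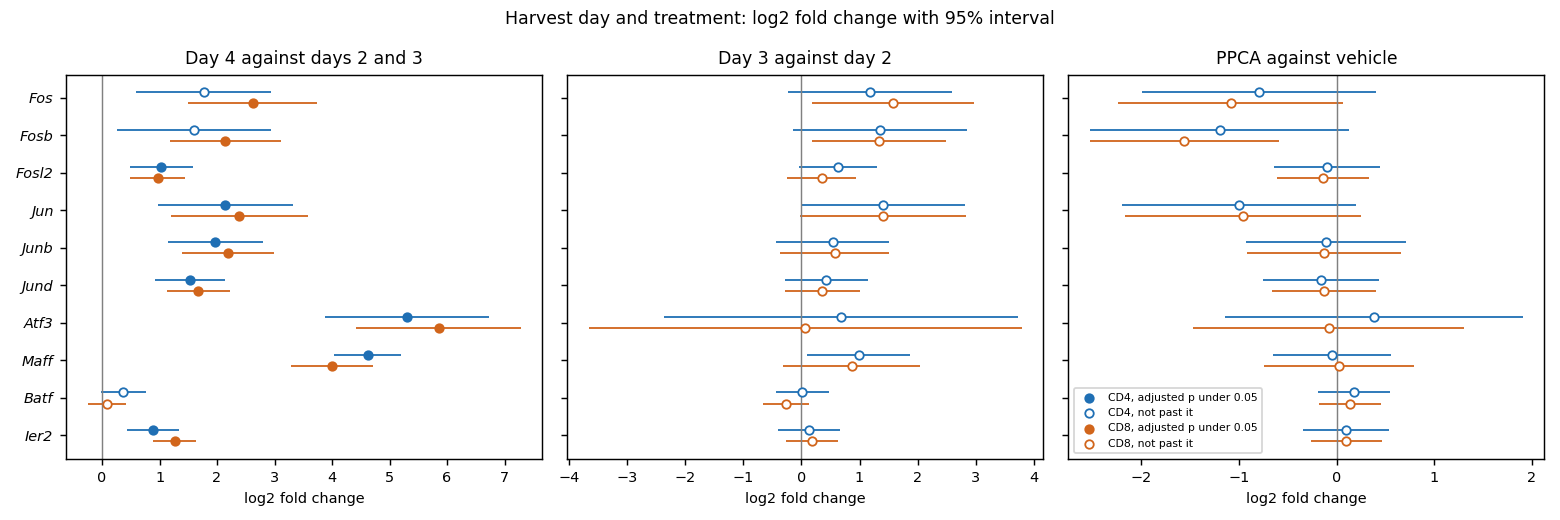
Log2 difference of each member for day 4 against days 2 and 3, day 3 against day 2, and PPCA against vehicle, in CD4-gated (blue) and CD8-gated cells (orange), with 95% intervals from edgeR and filled points for an adjusted p under 0.05. In the first panel the points of all 10 members lie to the right of 0, with Batf (both gates), Fos and Fosb (CD4 cells) unfilled. Atf3, at 5.30 and 5.85, passed the low-count filter only through day 4. In the other panels no point is filled.

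A test of the difference between gates was added after the data were seen. Of 12456 genes, 0.385% had a day 4 difference that itself differed between CD8 and CD4 cells (0.153% larger and 0.233% smaller in CD8 cells), and 3 members were among them, each with the larger difference in CD8 cells. The log2 gap was 0.95 for Fos (SE 0.080, edgeR adjusted p = 0.00019), 0.40 for Ier2 (adjusted p = 0.0073) and 0.27 for Jun (adjusted p = 0.045). Without day 2 the count was 6 members among 89 genes, and with no filter on low counts 5 among 179, all larger in CD8 cells. The Jun call held in 4 of 10 alternatives. It was lost in edgeR with DESeq2 size factors (adjusted p = 0.063), with DESeq2 (0.068), UMI totals (0.059), no doublet removal (0.055) or the gates alone (0.055), and without day 3 (0.18).

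Other genes were read from lists chosen with earlier results of these data known. Over all genes tested, 8.39% were called higher and 5.49% lower on day 4 in CD4 cells, and 9.16% and 7.07% in CD8 cells. Of 24 other immediate early genes, 19 rose on day 4 in CD4 and 20 in CD8 cells and none fell, with median log2 differences of 1.56 and 1.41. The nuclear receptor gene Nr4a1 rose by 2.62 and 2.94, the NF-kB inhibitor gene Tnfaip3 by 3.99 and 3.59, and Klf6 by 2.86 and 2.73. Of the leucine zipper partner genes, 4 of 18 rose and 1 fell in CD4 cells, and 3 of 17 rose and 2 fell in CD8 cells, with Nfil3 at 3.03 and 3.04 and the small Maf gene Mafk at 1.65 and 1.53. Of 18 kinase and serum response factor pathway genes upstream of AP-1, the p38 kinase kinase gene Map2k3 alone rose in CD4 cells (0.61), and in CD8 cells it rose (0.42) while Mrtfa fell (-0.49). Of 5 IRF and NFAT genes, 1 rose, 1 fell and 3 were not called in each gate. Irf4 rose by 1.46 and 1.30, and Nfatc2, which encodes NFAT1, fell by 0.49 and 0.61 on the log2 scale.

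Markers of stress and of other cells were read beside the members. The summed heat shock and dissociation genes held 5363 to 5779 CPM in day 4 CD4 cells. That lay inside the range of the untreated libraries (5309 to 9065 CPM) and overlapped that of days 2 and 3 (3907 to 5644 CPM). In CD8 cells they held 5204 to 5757 CPM on day 4, against 5298 to 8622 CPM in the untreated libraries and 4071.5 to 5450 CPM on days 2 and 3. In CD4 cells 5 of 14 rose and in CD8 cells 6 of 14, against 8.39% and 9.16% of all genes. Summed pancreas genes were lower on day 4 than on days 2 and 3 in CD4 cells (40.0 to 65.7 against 91.6 to 253 CPM) and higher in CD8 cells (79.9 to 132 against 15.1 to 70.1 CPM). Summed B cell and myeloid genes, which the cell filter limits, overlapped in CD4 cells (4.74 to 5.90 CPM on day 4 against 4.01 to 6.32 on days 2 and 3). In CD8 cells they were lower on day 4 without overlap (10.9 to 12.6 against 17.0 to 18.5 CPM), and 1 of the 3 tested there fell. PPCA day 4 had the lowest median UMIs per cell, 3848 in CD4 and 4275.5 in CD8 cells. The part of these in the day 4 difference was not tested.

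No member passed the threshold between days 2 and 3. The log2 differences of day 3 against day 2 ran from 0.02 (Batf) to 1.41 (Jun) in CD4 cells and from -0.27 to 1.58 in CD8 cells. Between these days edgeR called 0 of 11937 genes in CD4 cells (671 at an unadjusted p under 0.05, 34 with DESeq2) and 0.0753% of 11959 in CD8 cells (0.0167% higher and 0.0585% lower on day 3), none a member. Without the day 4 libraries, 4 members were called higher in CD8 cells, among 344 genes (137 higher and 207 lower), and none in CD4 cells, where 3 genes were. Without a filter on low counts 3 members were called higher in each gate, among 135 genes in CD4 and 481 in CD8 cells, and with the sex-linked class as a factor 3 were in CD8 cells, among 158 genes.

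PPCA against vehicle gave no called member, in a design with 2 residual degrees of freedom. The test compared the 3 PPCA with the 3 vehicle libraries with day as a factor. It called 0 of 11937 genes in CD4 cells (801 at an unadjusted p under 0.05, 34 with DESeq2 and 0 with limma-voom) and 0 of 11959 in CD8 cells (953 unadjusted, 42 with DESeq2, 2 with limma-voom), a background of 0.00% in both. Fos gave a log2 difference of -0.80 in CD4 (95% interval -1.99 to 0.40, adjusted p = 0.80) and -1.09 in CD8 cells (-2.24 to 0.07, adjusted p = 0.64). Jun gave -1.0 (-2.19 to 0.20) and -0.95 (-2.16 to 0.25). Fosb was the member farthest from 0, at -1.20 (-2.52 to 0.13) and -1.56 (-2.53 to -0.59), with an adjusted p of 0.76 and 0.52. The other 7 members lay between -0.16 (Jund) and 0.38 (Atf3) in CD4 cells and between -0.14 (Fosl2) and 0.14 (Batf) in CD8 cells.

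The difference between treatments ran in different directions on different days. On day 2 the PPCA library held 54.3 CPM of Fos against 319 CPM in vehicle CD4 cells, 70.5 against 469 of Jun and 20.2 against 123 of Fosb. On day 4 it held 744 against 501, 1349 against 1028 and 245 against 144 CPM. The log2 ratios of Fos on days 2, 3 and 4 were -2.55, -0.30 and 0.57 in CD4 and -2.94, -0.37 and 0.01 in CD8 cells. Junb went from -1.19 to 0.09 and 1.02 in CD4 and from -1.03 to -0.12 and 1.05 in CD8 cells. PPCA lay below vehicle on all 3 days for no member in CD4 cells (6.48% of all genes did) and for Fosb alone in CD8 cells (5.99%), and above it on all 3 days for none (23.3% of genes in CD4 and 25.8% in CD8 cells). The sex-linked class also differed between these libraries: on day 2 the PPCA library had Xist and the vehicle library Y-linked transcripts, on day 4 the reverse, and on day 3 both had Y-linked transcripts. The Xist library was the lower one for Fos, Fosb and Jun in CD4 cells on both days. In CD8 cells this held on day 2 and, on day 4, for Jun (755 against 1004.5 CPM), while Fos was nearly equal (609.7 against 614 CPM) and Fosb higher in the Xist library (222 against 178 CPM). With 1 library per treatment and day, a day-specific effect of PPCA, the sex-linked class and the spread between libraries cannot be told apart.

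**Figure D3:**
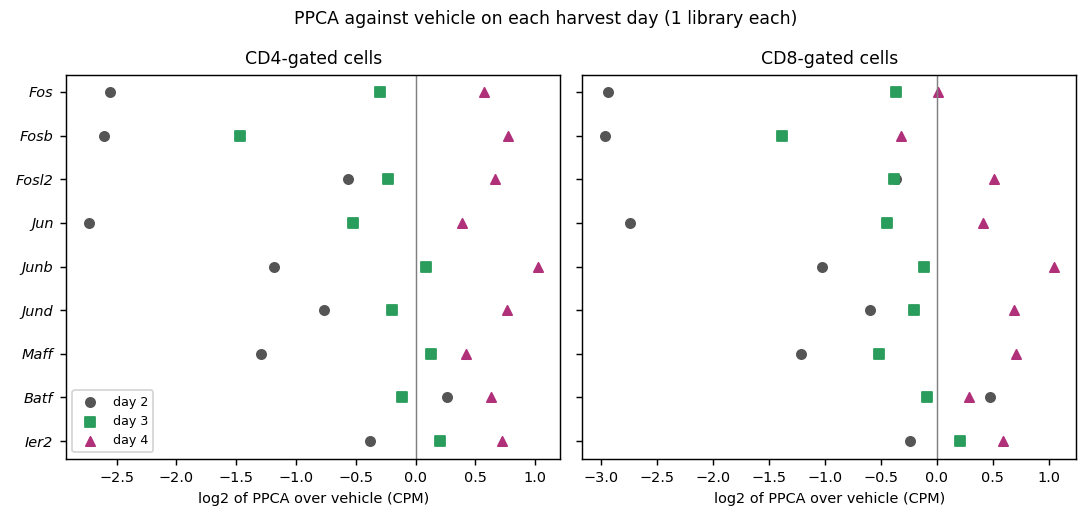
Log2 ratio of PPCA to vehicle for each member on days 2, 3 and 4, in CD4-gated and CD8-gated cells, 1 library per treatment and day (Atf3, with 0 UMIs in some, is not drawn). Fos, Fosb and Jun start at -2.55 to -2.97 on day 2 and end between -0.32 and 0.77 on day 4.

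Some settings gave calls for these 3 members. Fos, Fosb and Jun were called lower in PPCA in both gates with no filter on low counts and with the sex-linked factor. With no filter their values hardly moved while the SE fell, as for Jun in CD4 cells from 0.51 to 0.21. The sex-linked factor, or leaving out a day, left fewer residual degrees of freedom than the 2 of the main fit. Without day 4, Fosb was called lower in CD4 (-2.11, edgeR adjusted p = 0.0087) and CD8 cells (-2.20, adjusted p = 0.00046). It was the only member called in CD4 cells, among 33 genes, and 1 of 4 in CD8 cells, all lower and with Jun (-1.67, adjusted p = 0.031) among them, where 155 genes were called. Without day 2 Fos stood at 0.04 and -0.28. The treatment difference did not pass the threshold for a difference between gates in any member (2 of 12456 genes, 0.0161%, did). Fos gave -0.34 (adjusted p = 0.56) and Fosb -0.54 (adjusted p = 0.79), both called without day 3, at -0.49 and -0.88, and with no filter on low counts, at -0.32 and -0.53.

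Members differed between CD8 and CD4 cells of the same libraries. In edgeR with the library as a block, over 8 pairs, Junb was lower in CD8 cells by a log2 difference of -0.82 (SE 0.055, adjusted p = 6.3e-09), Maff by -0.76 (SE 0.11, adjusted p = 3.6e-05), Jun by -0.56 (SE 0.045, adjusted p = 6.1e-08) and Fos by -0.52 (SE 0.12, adjusted p = 0.0024). Jund (-0.35) and Ier2 (-0.29) were also lower. Fosl2 was the only member called higher in CD8 cells, at 0.23 (SE 0.051, adjusted p = 0.0018). Of 12628 genes 45.0% were called, 22.8% higher and 22.1% lower, so the count of 7 called members is read against that background. The median was -0.32 over the members and 0.00 over all genes. With UMI totals the genes called split into 2205 higher and 3626 lower, against 2882 and 2797, and 8 members were called, with Fosb (-0.31, edgeR adjusted p = 0.0498) added among the lower ones.

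Levels of the gates overlapped across libraries. Junb was lower in the CD8 cells of all 8 libraries, at 368 against 774 CPM in active, 831 against 1079.6 in onset and 2425 against 4112 in PPCA on day 4. Fos was lower in 7 of 8, with 73.6 against 154 CPM in active, and higher only in vehicle on day 4 (609.7 against 501). Jun, Junb, Jund and Maff were lower in CD8 cells in all 8 libraries (18.9% of genes were) and no member was higher in all 8 (11.7% were). Fosb (-0.26, adjusted p = 0.083), Atf3 (-0.21) and Batf (-0.09) did not pass the threshold. In the 4 libraries with Xist alone Fos lost its call (-0.43, adjusted p = 0.096) and Fosb stood at 0.01, and in the 4 Y-linked libraries alone Fosl2 lost its call (0.13) while Fosb (-0.49, edgeR adjusted p = 6.2e-07) and Batf (-0.23, adjusted p = 0.015) were called lower.

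Foxp3, the lineage factor of regulatory T cells, marked a smaller group of 99 to 204 CD4 cells per library, which were compared with the Foxp3-negative CD4 cells of the same libraries. Batf stood at 48.2 to 109 CPM in Foxp3+ and 28.3 to 45.3 CPM in Foxp3- cells. These ranges did not overlap, and Batf was higher in all 8 pairs, by 0.96 on the log2 scale (SE 0.092, edgeR adjusted p = 5.9e-13). Fosb stood at 60.4 to 514 CPM (median 168) in Foxp3+ and 17.0 to 234 CPM (median 127) in Foxp3- cells. It was higher in all 8 pairs, by 0.42 (SE 0.082, edgeR adjusted p = 4.2e-05), although the ranges over libraries overlapped. Ier2 was lower in all 8, by -0.50 (SE 0.056, adjusted p = 1.0e-10).

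Maff was called lower in Foxp3+ cells (-1.02, edgeR adjusted p = 0.00052), but its CPM was lower in 5 of 8 libraries and it rested on 41 UMIs in Foxp3+ cells. That call was lost with DESeq2 (-0.74) and in the Xist libraries alone (-0.87). The other 6 members gave values from -0.12 (Fos) to 0.77 (Atf3) and were not called, with Junb higher in CPM in 8 of 8 libraries and Jund in 7 of 8. Of 12182 genes 31.0% were called (14.1% higher and 16.9% lower). With UMI totals, which moved the median of all genes to 0.20, the genes called went from 1716 higher and 2055 lower to 3626 and 682, and 7 members were called, 5 higher and 2 lower, the 4 above in the same directions.

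**Figure D4:**
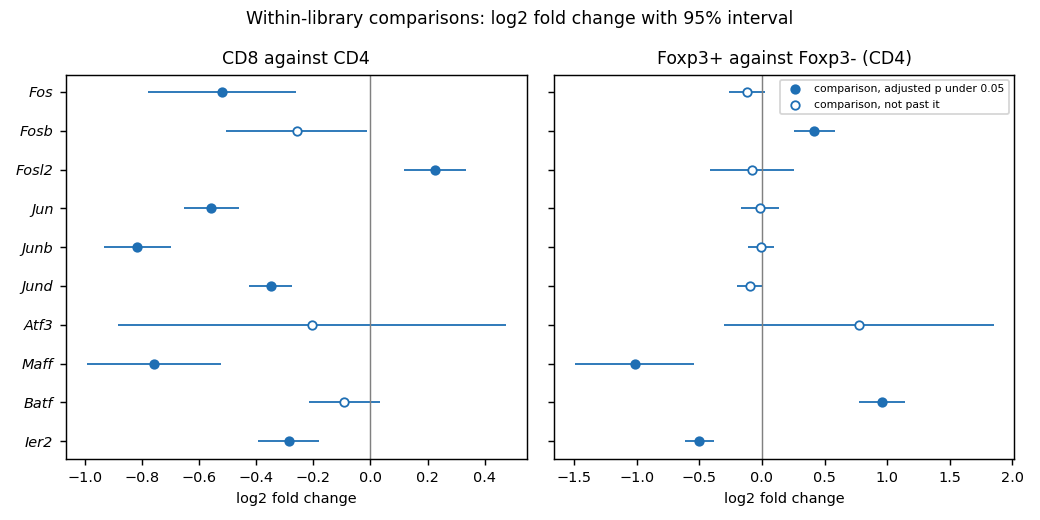
Log2 differences of each member within libraries, CD8 against CD4 cells and Foxp3+ against Foxp3- CD4 cells, with 95% intervals from edgeR over 8 library pairs and filled points for an adjusted p under 0.05. In the first panel only Fosl2 lies to the right of 0, at 0.23, and in the second the filled points are Batf (0.96) and Fosb (0.42) to the right and Maff (-1.02) and Ier2 (-0.50) to the left.

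The untreated libraries allowed no test, with 1 of each. Fos stood at 154 CPM in active and 445 in onset CD4 cells, and at 73.6 and 374 in CD8 cells, log2 ratios of -1.54 and -2.34. The summed heat shock and dissociation genes were also lower in active, at 5309 against 9065 CPM in CD4 and 5298 against 8622 CPM in CD8 cells, and their part in these ratios was not tested. In CD8 cells Junb (-1.18) and Fosb (-1.02) were also at least 2-fold lower in active. Among members that reached 50 CPM in either library, those at least 2-fold lower in active numbered 1 in CD4 and 3 in CD8 cells, against 0.397% and 1.37% of such genes (0.830% and 1.70% in either direction), and 2 in CD8 cells once scaled by TMM. The Batf level was 32.0 against 40.5 CPM in CD4 cells.

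Cells were thinned to 2000 UMIs each to compare shares of cells with at least 1 UMI. In CD4 cells Maff was read in 8.73% of vehicle and 11.8% of PPCA cells on day 4, and in 0.29% to 0.72% in the other 6 libraries. Before thinning these shares were 20.0%, 20.5% and 0.48% to 1.63%, and 11 to 97 cells of a library and gate fell below 2000 UMIs. Junb was read in 91.3% and 98.5% on day 4 against 48.7% to 77.1% elsewhere, without overlap. Jun was read in 72.2% and 76.5% against 11.9% to 56.0%. Fos shares overlapped, at 48.8% in vehicle and 62.0% in PPCA on day 4 against 7.74% to 50.95% elsewhere. Those of CD8 cells did not overlap. There, cells with a Fos UMI outnumbered those without one in both day 4 libraries (1385 against 1258 in vehicle, 2332 against 1997 in PPCA) and in no other library. In CD8 cells the Maff shares were 4.20% and 6.24% on day 4 and 0.23% to 0.67% elsewhere.

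**Figure D5:**
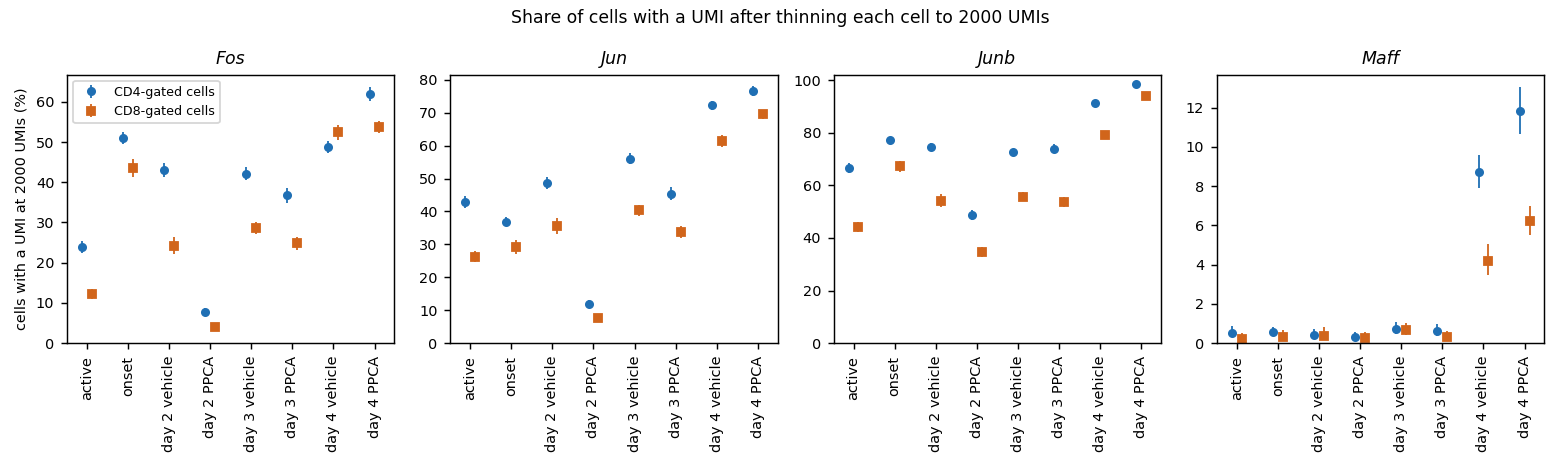
Share of CD4-gated and CD8-gated cells with at least 1 UMI of Fos, Jun, Junb or Maff (percent, cells thinned to 2000 UMIs), 1 point per library with its 95% exact binomial interval. Maff is read in 8.73% and 11.8% of CD4 cells on day 4 and in under 1% in the other libraries.

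Fos UMIs and those of other members were then compared within libraries. Among thinned cells, those with a Fos UMI held 1.35 to 4.89 times as many Fosb UMIs as those without one in CD4 cells, and 1.17 to 4.40 times as many in CD8 cells, above 1 in all 8 libraries of both gates. Jun gave ratios of 1.09 to 1.89 and 1.22 to 1.82, also above 1 throughout. The other members lay on both sides of 1 in at least 1 gate. Junb, Jund and Ier2 were above 1 in 7 or 8 of 8 libraries in each gate, Fosl2 in 6 and 7, Maff in 4 and 4, and Batf in 5 and 3, with Batf ratios of 0.78 to 1.19 and 0.46 to 1.26.

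Over the 16 library and gate profiles and 5275 genes, the genes nearest to each member were named by the root mean square difference of centred log2 levels, as a description with no test. The profiles share libraries and depth. Fosb (0.52) and Jun (0.52) were nearest to Fos, Fos (0.52) and Jun (0.52) to Fosb, and Gm20186 (0.50) and Cd69 (0.51), an early activation marker, to Jun. Dusp1, which encodes a MAP kinase phosphatase, was nearest to Junb (0.27), followed by Pim1 (0.34). Cited2 (0.16) and H3f3b (0.17) were nearest to Jund, and Wsb1 (0.16) and Atf4 (0.18) to Ier2.

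The authors' deposited table of cluster genes, which lists genes from a log2 difference of 0.25 upward in 7 clusters, named 7 members in 5 clusters. In the authors' deposited table, the cluster labelled CD4 Th17 had Junb at 0.91 and Fosb at 0.81, and the CD4 Treg cluster Junb at 0.65, Fosb at 0.63 and Batf at 0.32. The authors' deposited table gave the CD8 TRM TEM cluster Batf at 0.42 and Fosb at 0.40, and CD4 Th0 Fos at 0.52 and Batf at 0.27.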

How the data were processed

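T cells from the pancreas of NOD mice were profiled by droplet single-cell RNA sequencing with a 3′ version 2 kit, per the labels. The authors deposited filtered matrices of UMI counts per gene and cell, made with Cell Ranger (6.0.0 per the file headers, 6.1.2 per the submitters' processing notes, which also name Seurat). The build and the gene annotation of the alignment were not stated in those sources. The authors also deposited a table of cluster genes with log2 differences and p-values.

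Barcodes with at least 500 genes and at most 10% mitochondrial UMIs were kept, the highest-scoring doublets (0.8% per 1000 barcodes) were removed, and cells with over 1 UMI of B cell or myeloid genes were left out. Raw counts were summed per library and gate and tested with edgeR's quasi-likelihood test (TMM scaling, Benjamini-Hochberg adjustment, threshold 0.05) over all genes passing the low-count filter. The tests were checked on simulated counts with known changes, where the share of false calls lay above the nominal threshold in most comparisons, farthest in the interaction tests and in day 3 against day 2. The members and gene lists were chosen with earlier results of these data known. Members past the threshold are named with their values and others by range and counts, other genes as up to 4 per list with the smallest adjusted p, and the 2 nearest profiles of each member averaging at least 50 CPM. Day numbers pair vehicle with PPCA libraries: deviations from the group means correlated at 0.326, 0.349 and 0.500 in CD4 and 0.351, 0.542 and 0.513 in CD8 cells. Alternatives were DESeq2, limma-voom, other scalings, no filter, no doublet removal, the gates alone, leaving out days or libraries, and a sex-linked factor. A planned comparison of cell states within each gate is not reported here.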

Additional observations from a re-analysis of the deposited data

Results flagged for a closer look

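The day 4 difference was larger in CD8 than in CD4 cells for 3 members by edgeR's interaction test, which was added after the data were seen: Fos by 0.95, Ier2 by 0.40 and Jun by 0.27 on the log2 scale. Fos and Ier2 kept the call in all 10 alternatives run, and Jun in 4 of 10. The test uses the same libraries in both gates.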

How the results depend on the processing

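Day numbers pair the vehicle and PPCA libraries, and the library pairs the gates and cell states. Without this replicate block, CD8 against CD4 cells gave 2017 genes and 0 members past the threshold, and Foxp3+ against Foxp3- cells gave 2027 genes and 1 member (Batf), Fosb, Maff and Ier2 having lost their calls. PPCA against vehicle gave no called gene in either gate, with or without the block, so no call could depend on it.

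Over all settings, values called for a member kept the call on the same side in 384 cases and lost it, still on the same side, in 50. Among uncalled values of members named in day 4, the treatment, its interaction and CD8 against CD4, 149 stayed uncalled, 34 were called and 9 reversed. Fits without a day or library, or with the sex-linked factor, had fewer residual degrees of freedom. For the members compared above, no filter on low counts gave smaller SEs at nearly unchanged values. The cause of these changes was not tested further. Other uncalled members are not in that tally. For PPCA against vehicle, the genes called were 34 (DESeq2), 168 (no filter), 44 (sex-linked factor) and 1 to 33 (leaving out a day) in CD4 cells. In CD8 cells they were 2 (DESeq2 size factors in edgeR), 42 (DESeq2), 2 (limma-voom), 3 (UMI totals), 133 (no filter), 100 (sex-linked factor) and 0 to 155 (leaving out a day). Their interaction gave 1 (DESeq2), 80 (no filter) and 17 to 30 (leaving out a day). Fos in CD4 cells ran from -1.50 to 0.036 leaving out a day, the latter without day 2.

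Day 4 against days 2 and 3 gave 2522 genes without a filter, 2520 with a sex-linked factor, 503 to 1323 leaving out a day and 530 to 1550 leaving out a library in CD4 cells, where Fosb ran from -0.028 (without PPCA day 4) to 2.80 (without vehicle day 4). In CD8 cells it gave 1264 (DESeq2), 3170 (sex-linked factor), 541 to 1148 and 559 to 2342. Batf there stood at -0.076 with UMI totals and -0.032 without day 3, and from -0.049 to 0.24 leaving out a library. Its difference between gates gave 18 genes (DESeq2), 179 (no filter) and 70 to 89 (leaving out a day). Day 3 against day 2 gave 34 (DESeq2), 135 (no filter) and 3 (without day 4) in CD4 cells, and 130 (DESeq2), 21 (limma-voom), 277 (UMI totals), 481 (no filter), 1 (no doublet removal), 0 (the gates alone), 344 (without day 4) and 158 (sex-linked factor) in CD8 cells.

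With the 4 Xist libraries alone, CD8 against CD4 cells gave Fosb at 0.0064 and Batf at 0.031. Foxp3+ against Foxp3- gave 2238 genes with the Xist and 2384 with the Y-linked libraries alone. Each treatment and day is 1 library, which limits every treatment value, and Atf3 rests on few UMIs.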
